A study of Mus musculus and Rattus norvegicus with 43 samples.

Results

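The 32 genes described here are immediate-early and activity-induced genes, chosen by symbol as a list of transcription factors, signalling inhibitors and synaptic proteins that neurons switch on after stimulation. All 32 were found among the 54532 gene rows of the mouse count table, and all 32 were among the 19413 genes that passed the filter on low counts. Striatum from 1 hemisphere of C57BL/6 mice was taken at 4 months of age, frozen and sequenced as total RNA. On postnatal day 0 the mice had been injected with C/N-TAF miRNA (CN, 5 mice), N-TAF miRNA (N, 8 mice) or a control miRNA (control, 8 mice). N-TAF is the neuronal form of Taf1, itself a subunit of TFIID, the complex that recognises core promoters. For 1 further mouse the injection label names no miRNA, and it entered no comparison. The labels give no vector, promoter, sex, time of day or handling before the tissue was taken. The description field carries the ending Ct for every mouse, CN and N mice included, and the groups here follow the injection label.

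Immediate-early genes are transcribed within minutes of synaptic activity, without need of newly made protein, when calcium entry and kinase cascades act on transcription factors that are already bound at their promoters, such as CREB and SRF. Many of their products are transcription factors that then act on later genes, while the dual-specificity phosphatases switch the kinases off again. In the striatum, Fos, Egr1, Arc and Nr4a1 are widely used as readouts of dopamine and glutamate input to medium spiny neurons. Bulk tissue was measured, so fewer cells of a type and less RNA per cell cannot be told apart.

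Libraries held 26696471 to 35585689 counts in CN, 25351442 to 30907625 in N and 24876988 to 32991639 in control mice. Levels are CPM, that is, counts relative to the TMM-adjusted library total, and the lowest count of any of the 32 genes in any library was 16, for Maff. The targeted gene, Taf1, averaged 90.7 ± 22.6 CPM in CN (SD, n = 5), 97.5 ± 6.19 CPM in N and 98.6 ± 5.53 CPM in control mice (SD, n = 8 each), with no difference past the test (adjusted p = 0.987 for N against control, 0.703 for CN against control and 0.728 for CN against N, edgeR), and counts per gene do not separate its isoforms. CN library 2 stood apart, with Taf1 at 50.6 CPM. Its deviation from the mean of all libraries ran against exonic length over 19397 genes (Spearman's rho = -0.32) and over the 32 genes (rho = -0.65), while CN library 1 was the opposite extreme (0.28 and 0.52). For the members described with their fold changes, the value in CN against N mice is therefore also given without CN library 2. The 10 striatal markers were all detected, and they summed to 7928 to 10347 CPM in CN, 6974 to 9202 CPM in N and 8548 to 9901 CPM in control mice.

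The promoters of these genes were searched for sequences through which activity is known to act. A window of 250 bases before the start was held for 24 of the 32 genes in RefSeq (GRCm38.p6). The cyclic AMP response element TGACGTCA, the binding site of CREB, was in 3 of the 24, Btg2, Dusp1 and Maff, against 1.77% of 27018 genes. Its shorter form TGACG, which overlaps the full element, was in 15 of 24, against 19.8% of all genes. The CArG box, to which SRF binds, was in 2 of 24, Dusp5 and Egr2, against 1.62%. TGANTCA, a loose form of the AP-1 sequence with any base at N, was in 1 of 24, Csrnp1, against 7.82%. The Egr sequence GCGGGGGCG was in 4 of 24 against 2.93%, the Nr4a sequence AAAGGTCA in 0 of 24 against 1.55%, and TATAAA in 4 of 24 against 14.3%. Both strands were searched, and a match describes letters in this window. Sites farther from the start, and the 8 genes without a window, Egr1 among them, were not searched. A gene with several windows was counted when any of them held the sequence. Printed are Fos, the 3 genes with a single window whose levels followed it most closely over the libraries, and Egr4 and Npas4, which had the lowest p between CN and N mice. Capitals mark TGACGTCA, TGACG on either strand (CGTCA when read on the other) and TATAAA. The windows lie at chr12:85473640-85473889 (Fos, plus strand), chr17:26508473-26508722 (Dusp1, minus), chr1:134079156-134079405 (Btg2, minus), chr15:101266596-101266845 (Nr4a1, plus), chr6:85513590-85513839 (Egr4, minus) and chr19:4989972-4990221 (Npas4, minus), each read 5′ to 3′ towards the start.
Fos: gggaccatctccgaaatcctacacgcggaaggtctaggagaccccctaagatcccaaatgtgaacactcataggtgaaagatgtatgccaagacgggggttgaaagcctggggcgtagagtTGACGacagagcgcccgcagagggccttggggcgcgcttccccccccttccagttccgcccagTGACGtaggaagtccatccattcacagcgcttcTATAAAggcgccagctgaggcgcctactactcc
Dusp1: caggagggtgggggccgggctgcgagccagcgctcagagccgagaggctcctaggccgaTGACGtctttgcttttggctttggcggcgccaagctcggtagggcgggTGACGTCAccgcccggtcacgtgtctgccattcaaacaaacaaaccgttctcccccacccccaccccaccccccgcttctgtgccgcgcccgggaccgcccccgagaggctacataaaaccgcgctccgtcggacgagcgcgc
Btg2: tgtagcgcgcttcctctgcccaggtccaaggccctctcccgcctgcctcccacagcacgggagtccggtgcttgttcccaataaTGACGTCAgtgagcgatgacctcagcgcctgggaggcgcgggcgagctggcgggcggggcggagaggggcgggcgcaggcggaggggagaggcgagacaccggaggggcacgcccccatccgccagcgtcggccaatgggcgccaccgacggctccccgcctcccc
Nr4a1: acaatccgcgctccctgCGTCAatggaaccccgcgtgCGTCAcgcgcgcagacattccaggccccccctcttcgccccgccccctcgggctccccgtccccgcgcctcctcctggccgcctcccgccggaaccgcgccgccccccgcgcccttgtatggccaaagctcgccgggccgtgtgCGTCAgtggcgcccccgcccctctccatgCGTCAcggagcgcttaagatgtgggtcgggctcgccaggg
Egr4: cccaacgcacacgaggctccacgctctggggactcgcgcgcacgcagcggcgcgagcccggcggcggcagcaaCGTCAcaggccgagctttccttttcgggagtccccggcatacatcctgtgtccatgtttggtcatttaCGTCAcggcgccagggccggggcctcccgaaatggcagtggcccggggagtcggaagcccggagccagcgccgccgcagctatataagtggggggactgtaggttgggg
Npas4: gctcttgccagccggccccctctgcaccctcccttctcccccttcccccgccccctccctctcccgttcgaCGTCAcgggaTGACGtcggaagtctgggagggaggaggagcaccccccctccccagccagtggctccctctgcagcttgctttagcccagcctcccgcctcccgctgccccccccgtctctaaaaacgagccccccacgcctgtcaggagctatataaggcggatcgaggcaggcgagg
In the Fos window the 2 TGACG sequences end 124 and 61 bases before the start and TATAAA ends 27 bases before it, and the Nr4a1 window holds CGTCA at 4 places. The Npas4 window holds CGTCA and TGACG with 5 bases between them.

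In N mice most of these genes had lower levels than in control mice, but no single gene passed the test. The log2 fold change was below 0 for 27 of 32 genes, against 47.9% of all genes tested, with a median of -0.23 over the 32 and 0.0067 over all genes. With edgeR's quasi-likelihood test, 0 of 32 had a Benjamini-Hochberg adjusted p under 0.05, as had 0 of 19413 genes (0%), and the lowest adjusted p among the 32 was 0.219, for Npas4. At an unadjusted p under 0.05, 10 of 32 were lower (Arc, Btg2, Dusp6, Egr1, Egr2, Egr4, Fos, Junb, Klf4 and Npas4), against 4.33% of all genes, and 1 was higher (Csrnp1), against 5.06%. That count of 10 was 5 without control library 2 (7.77% of all genes in either direction). It was 6 without N library 3 (7.44%) or N library 5 (7.26%). The median was -0.15 without control library 2. DESeq2 called Npas4 among 74 genes (0.381%). By limma-voom 0 genes were called, with 9 of the 32 at an unadjusted p under 0.05 (9.11% of all genes). No gene of the 32 had groups that did not overlap, against 0.108% of all genes lower and 0.103% higher. Many of these genes varied together from mouse to mouse, as described below. Counts of genes here and in the comparisons that follow are therefore not counts of independent results.

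In CN mice most of these genes had levels at or slightly above those of control mice, and no gene passed the test. The log2 fold change was above 0 for 24 of 32, against 50.1% of all genes, with a median of 0.15 over the 32 and 0.00076 over all genes. By edgeR 0 of 32 and 0 of 19413 genes passed the adjusted threshold (0%), as with DESeq2 and limma-voom, and the lowest adjusted p among the 32 was 0.590. At an unadjusted p under 0.05, 1 of 32 was higher, Dusp14, against 5.08% of all genes, and 0 were lower, against 3.28%. No gene of the 32 had CN and control ranges that did not overlap, against 0.0927% of all genes higher and 0.175% lower. The count of 1 at an unadjusted p under 0.05 was 4 without CN library 1 (Dusp14, Gadd45b, Gadd45g and Jund, all higher), where 19.9% of all genes in either direction were under that p. It was 3 without control library 2 (7.12% of all genes). It was 2 without CN library 3, 4 or 5, N library 6 or control library 1, 3 or 8 (6.78% to 10.8%). Without CN library 2 (5.83% of all genes) it was also 2, Nr4a3 (higher) and Csrnp1 (lower), and Dusp14 was not among them. The median was 0.19 without CN library 2, 0.096 without CN library 4 and 0.094 without CN library 5. This comparison and that of N mice share the 8 control libraries.

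Between CN and N mice 28 of 32 genes had a log2 fold change above 0, against 50% of all genes, with a median of 0.40 over the 32 and 3.4e-05 over all genes. By edgeR's test 0 of 32 and 0 of 19413 genes passed the adjusted threshold (0%), and the lowest adjusted p among the 32 was 0.135, for Egr4 and Npas4. At an unadjusted p under 0.05, 16 of 32 were higher in CN mice, against 5.99% of all genes, and 1 was lower, Csrnp1, against 5.83%. DESeq2 called 3 of the 32 among 172 genes (0.886%), namely Npas4, Egr4 and Csrnp1. By limma-voom 0 genes were called, with 14 of the 32 at an unadjusted p under 0.05 (12.1% of all genes). Egr4 was the only one of the 32 with no overlap between CN and N mice, against 0.222% of all genes higher and 0.309% lower without overlap. Without CN library 2 the median was 0.50, 18 genes were higher and 3 lower at an unadjusted p under 0.05 (15.7% of all genes in either direction), and edgeR called 70 genes (0.356%), with 0 of the 32 among them. These values share the CN and N libraries with the comparisons above. Since many of the genes varied together between mice, 16 of 32 does not stand for 16 independent results.

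**Figure D1:**
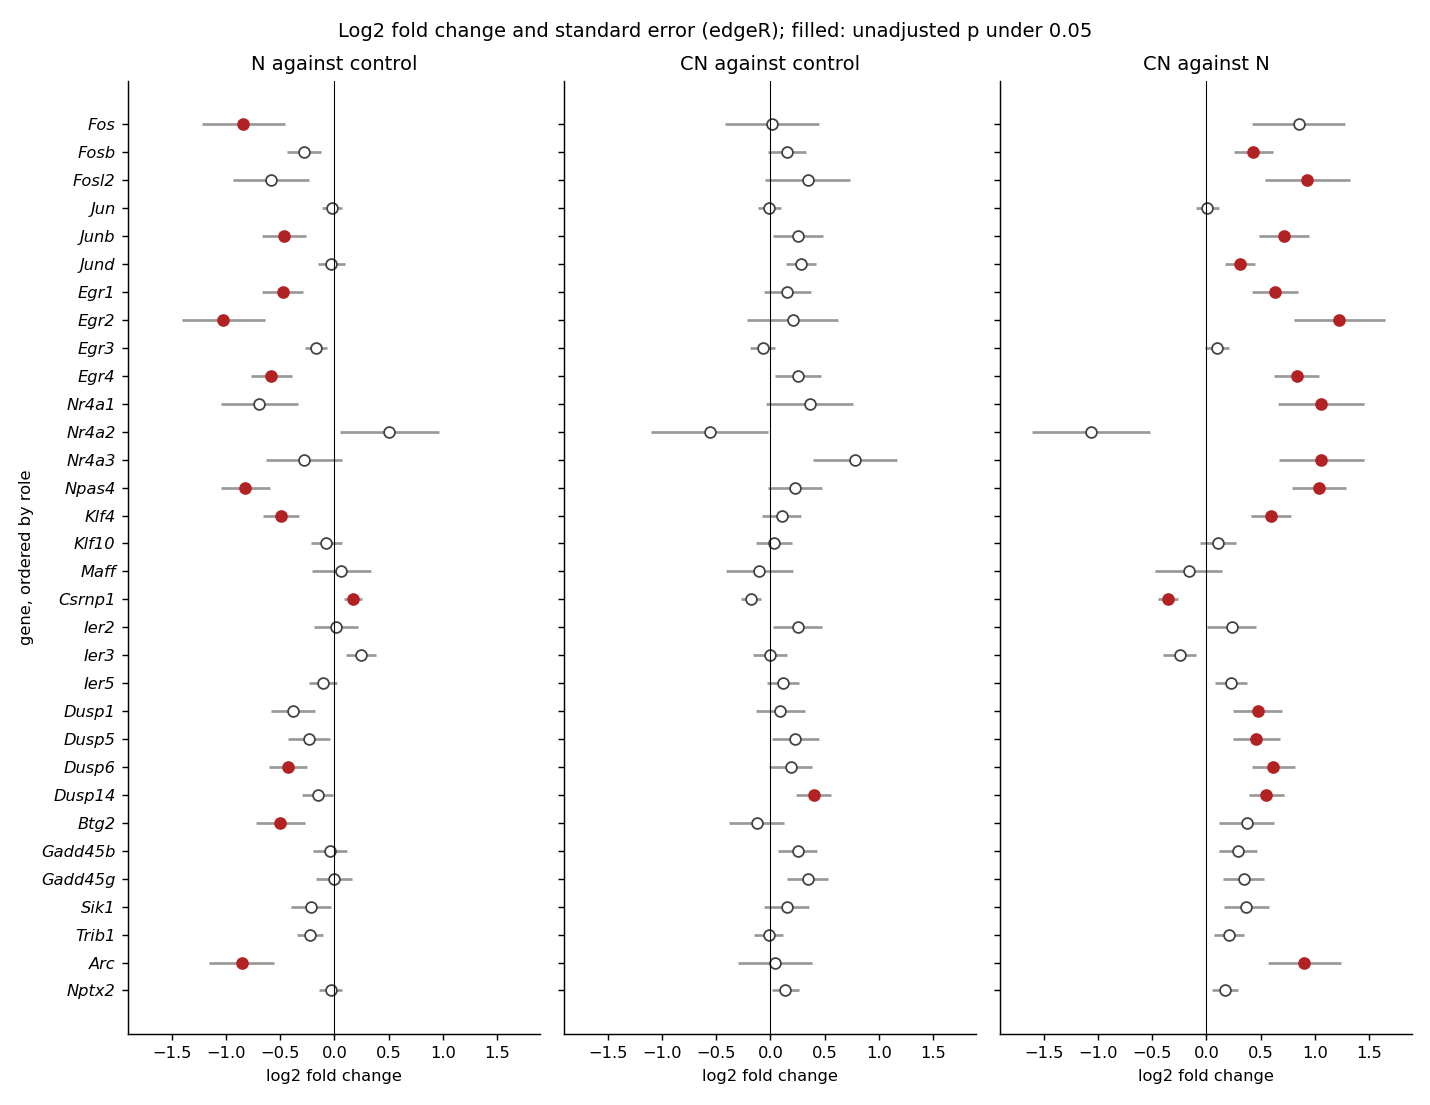
Log2 fold change (x axis) of each of the 32 genes in N against control, CN against control and CN against N mice, with bars of 1 standard error from edgeR, and filled points for an unadjusted p under 0.05. Filled points lie left of 0 for 10 genes in N against control and right of 0 for 16 genes in CN against N, and none had an adjusted p under 0.05.

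The Fos and Jun proteins pair to form the transcription factor AP-1, with Fos as the inducible partner. Fos stood at 18.7, 8.48, 21.7, 30.2 and 22.2 CPM in CN libraries 1 to 5, at 5.16 to 23.4 CPM in the 8 N libraries (median 8.62) and at 5.37 to 32.8 CPM in the 8 control libraries (median 21.4). Fos was thus below 10 CPM in CN library 2, in 5 of 8 N mice and in 3 of 8 control mice, and the groups overlapped. The means were 20.3 ± 7.84 CPM in CN (SD, n = 5), 11.2 ± 6.53 CPM in N and 20.1 ± 11.2 CPM in control mice (SD, n = 8 each). Its log2 fold change was -0.84 (SE 0.39) in N against control, with an adjusted p of 0.511, and 0.85 (SE 0.43) in CN against N, with an adjusted p of 0.441, and 1.05 in CN against N without CN library 2. Junb was at 108, 109.8, 128, 160.1 and 149 CPM in CN libraries 1 to 5, at 42.4 to 113 CPM in the 8 N libraries (median 72.7) and at 57.7 to 159.6 CPM in the 8 control libraries (median 109). Junb, a Jun protein that is itself an immediate-early gene, exceeded 100 CPM in all 5 CN mice, but also in 2 of 8 N and 5 of 8 control mice. Its log2 fold change was -0.47 (SE 0.20) in N against control and 0.72 (SE 0.23) in CN against N, with adjusted p values of 0.471 and 0.226, and 0.78 in CN against N without CN library 2. Exons of Prdx2 on the opposite strand cover 7.52% of the exonic length of Junb. Whether counting used the strand is not stated in the sources used here. Without it, reads from the shared stretch cannot be told apart between the 2 genes. Such overlaps also touched Jund, Dusp5 (22.1%), Jun (7.28%), Csrnp1 (6.45%) and Dusp1 (0.332%).

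Fosb stood at 20.6, 12.2, 22.03, 24.6 and 25.4 CPM in CN libraries 1 to 5, at 11.2 to 19.97 CPM in the 8 N libraries (median 15.5) and at 12.3 to 25.1 CPM in the 8 control libraries (median 18.99). Fosb, known for a stable truncated form that gathers in the striatum under repeated stimulation, was at 20.6 CPM or more in CN mice other than library 2, and the groups overlapped. Fosl2 lay at 52.3, 8.39, 25.5, 48.3 and 65.7 CPM in CN libraries 1 to 5, at 14.7 to 28.9 CPM in the 8 N libraries (median 21.03) and at 16.2 to 71.9 CPM in the 8 control libraries (median 24.4). Fosl2, also called Fra-2, had a CN median of 48.3 CPM, with its lowest value of all 21 mice in CN library 2. The log2 fold change in CN against N was 0.43 (SE 0.18, adjusted p = 0.344) for Fosb and 0.93 (SE 0.39, adjusted p = 0.359) for Fosl2, and 0.58 and 1.20 without CN library 2. Jund was at 46.5, 120.0, 65.5, 57.6 and 61.3 CPM in CN libraries 1 to 5, at 49.8 to 67.2 CPM in the 8 N libraries (median 56.9) and at 52.9 to 61.2 CPM in the 8 control libraries (median 58.1). Jund, the constitutive Jun protein, lay between 46.5 and 67.2 CPM in 20 of 21 mice, and the exception was CN library 2 at 120.05 CPM. Its log2 fold change in CN against N was 0.31 (SE 0.14, adjusted p = 0.384) and 0.032 without CN library 2. Jund shares 52.6% of its exonic length with a gene on the other strand, Gm11175. Jun itself ranged over 31.1 to 37.9 CPM in CN, 30.00 to 40.4 CPM in N and 27.4 to 49.2 CPM in control libraries.

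The 4 Egr genes encode zinc finger factors that bind GC-rich promoters. Egr1 stood at 337, 199.6, 278, 350.4 and 353 CPM in CN libraries 1 to 5, at 122 to 295 CPM in the 8 N libraries (median 186) and at 170.1 to 404 CPM in the 8 control libraries (median 252). Egr1, the most used marker of the family, lay between 278 and 353 CPM in 4 of 5 CN mice, and 1 of 8 N mice and 3 of 8 control mice also reached 278 CPM. Egr2 was at 25.1, 7.53, 15.97, 26.9 and 26.4 CPM in CN libraries 1 to 5, at 2.89 to 17.8 CPM in the 8 N libraries (median 6.82) and at 6.59 to 33.2 CPM in the 8 control libraries (median 15.7). Egr2 was under 8 CPM in CN library 2, in 5 of 8 N mice and in 1 of 8 control mice. Egr4 stood at 55.6, 53.2, 53.1, 72.2 and 72.2 CPM in CN libraries 1 to 5, at 21.6 to 49.4 CPM in the 8 N libraries (median 31.8) and at 29.4 to 77.2 CPM in the 8 control libraries (median 48.8). All 5 CN mice thus stood above all 8 N mice for Egr4, by a gap of 53.1 against 49.4 CPM, while the control mice spanned both groups. The log2 fold changes in N against control were -0.48 (SE 0.19) for Egr1, -1.02 (SE 0.38) for Egr2 and -0.58 (SE 0.19) for Egr4, with adjusted p values of 0.418, 0.376 and 0.284. In CN against N they were 0.63 (SE 0.21), 1.23 (SE 0.42) and 0.84 (SE 0.21), with adjusted p values of 0.252, 0.257 and 0.135, and without CN library 2 they were 0.76, 1.44 and 0.89. Egr4 was called in CN against N by DESeq2 (adjusted p = 0.0240). Egr3 covered 119 to 204 CPM in CN, 146 to 195 CPM in N and 161 to 235 CPM in control libraries, with CN library 2 lowest. Its log2 fold change was -0.17 in N against control and 0.096 in CN against N, with adjusted p values of 0.650 and 0.750. Without CN library 2 these were -0.17 and 0.22 (unadjusted p = 0.0274 and 0.0181, adjusted p = 0.242 and 0.212, edgeR).

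The Nr4a genes encode orphan nuclear receptors that act without a known ligand, and in the striatum Nr4a1 is known as a gene that antipsychotic drugs induce. Nr4a1 stood at 154, 60.5, 106, 189.5 and 173 CPM in CN libraries 1 to 5, at 26.5 to 109 CPM in the 8 N libraries (median 52.2) and at 40.6 to 208 CPM in the 8 control libraries (median 91.2). Nr4a1 was above 100 CPM in 4 of 5 CN, 2 of 8 N and 4 of 8 control mice. Nr4a3 was at 43.8, 8.66, 10.4, 31.6 and 47.5 CPM in CN libraries 1 to 5, at 9.30 to 18.9 CPM in the 8 N libraries (median 12.52) and at 7.91 to 41.9 CPM in the 8 control libraries (median 13.4). Nr4a3, also called Nor1, was above 30 CPM in CN libraries 1, 4 and 5 and in control library 2, and at or under 19.2 CPM in the other 17 mice. The log2 fold change in CN against N was 1.05 (SE 0.40, adjusted p = 0.305) for Nr4a1 and 1.06 (SE 0.39, adjusted p = 0.296) for Nr4a3. Without CN library 2 it was 1.25 for Nr4a1 and 1.30 for Nr4a3. Against control mice Nr4a3 was at 0.78 (SE 0.39, adjusted p = 0.601) in CN mice, at 1.01 without CN library 2, and at -0.28 (SE 0.35, adjusted p = 0.898) in N mice. Nr4a2, known as Nurr1 and needed by midbrain dopamine neurons, lay at 1.51 to 9.14 CPM in CN, 1.85 to 21.9 CPM in N and 1.36 to 15.1 CPM in control libraries.

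Npas4 encodes a neuron-specific factor that calcium entry induces, and it had the lowest p of the 32 genes in N against control. Npas4 stood at 27.6, 40.3, 43.8, 51.8 and 33.4 CPM in CN libraries 1 to 5, at 12.6 to 28.3 CPM in the 8 N libraries (median 17.8) and at 13.4 to 45.5 CPM in the 8 control libraries (median 38.9). Of the control mice, 6 lay between 36.9 and 45.5 CPM and 2 lay at 13.4 and 16.7 CPM, so that N and control mice overlapped only through control libraries 5 and 8. CN library 1, at 27.6 CPM, was the only CN mouse under the highest N value of 28.3 CPM. The means were 39.4 ± 9.35 CPM in CN (SD, n = 5), 19.1 ± 5.77 CPM in N and 33.8 ± 11.9 CPM in control mice (SD, n = 8 each). In N against control the log2 fold change was -0.82 (SE 0.22), with an adjusted p of 0.219 by edgeR and 0.0479 by DESeq2. In CN against N it was 1.04 (SE 0.25), with an adjusted p of 0.135 by edgeR and 0.0156 by DESeq2, and it was 1.04 without CN library 2 as well.

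Klf4 was at 4.69, 2.96, 3.52, 4.86 and 4.82 CPM in CN libraries 1 to 5, at 1.76 to 4.39 CPM in the 8 N libraries (median 2.87) and at 3.02 to 5.23 CPM in the 8 control libraries (median 3.87). Klf4, a zinc finger factor also made by endothelial cells, had a log2 fold change of -0.49 (SE 0.16, adjusted p = 0.317) in N against control and 0.59 (SE 0.18, adjusted p = 0.210) in CN against N, where it was 0.70 without CN library 2. The sum of 10 endothelial markers was 170 to 260.3 CPM in CN, 169 to 244 CPM in N and 223 to 299 CPM in control mice, and its part in the Klf4 values was not tested. Csrnp1 stood at 7.41, 9.38, 9.36, 9.05 and 8.31 CPM in CN libraries 1 to 5, at 9.23 to 13.4 CPM in the 8 N libraries (median 11.01) and at 8.62 to 11.3 CPM in the 8 control libraries (median 10.04). Csrnp1 encodes a nuclear protein first described as induced by axin. With all libraries, it was the one gene of the 32 higher in N than in control mice at an unadjusted p under 0.05. It was also the one lower in CN than in N mice at that p. Without CN library 2, Ier3 had the same directions at that p. The log2 fold change of Csrnp1 was 0.17 (SE 0.081, adjusted p = 0.522) in N against control. In CN against N it was -0.35 (SE 0.093), with an adjusted p of 0.157 by edgeR and 0.0317 by DESeq2. Without CN library 2 it was -0.38 in CN against N, with an adjusted p of 0.0704, and Klf4 had the same adjusted p. Klf10 covered 15.7 to 20.5 CPM in CN, 11.8 to 24.9 CPM in N and 14.1 to 28.6 CPM in control libraries, and Maff, the weakest of the 32, was at 0.646 to 1.29 CPM in CN, 0.617 to 2.68 CPM in N and 0.635 to 1.800 CPM in control libraries.

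The dual-specificity phosphatases remove phosphate from MAP kinases and so limit the signal that induced them. Dusp1 stood at 34.9, 25.3, 35.6, 44.3 and 38.8 CPM in CN libraries 1 to 5, at 16.8 to 35.1 CPM in the 8 N libraries (median 23.5) and at 18.3 to 46.8 CPM in the 8 control libraries (median 34.6). Dusp1 was under 26 CPM in CN library 2, in 5 of 8 N mice and in 3 of 8 control mice, the same 9 libraries in which Fos was under 10 CPM. Dusp6 was at 57.5, 35.6, 45.3, 58.9 and 52.99 CPM in CN libraries 1 to 5, at 21.1 to 45.8 CPM in the 8 N libraries (median 33.02) and at 31.2 to 61.3 CPM in the 8 control libraries (median 44.3). Dusp6, which acts on ERK, was under 36 CPM in CN library 2, in 5 of 8 N mice and in 3 of 8 control mice. Dusp5 lay at 12.2, 11.6, 10.5, 14.3 and 12.8 CPM in CN libraries 1 to 5, at 5.59 to 12.47 CPM in the 8 N libraries (median 8.49) and at 4.77 to 16.05 CPM in the 8 control libraries (median 10.9). The N and CN ranges of Dusp5, a nuclear ERK phosphatase, met at 10.5 to 12.47 CPM. Dusp14 stood at 37.4, 57.2, 38.6, 47.96 and 49.1 CPM in CN libraries 1 to 5, at 22.3 to 43.4 CPM in the 8 N libraries (median 30.8) and at 27.2 to 48.4 CPM in the 8 control libraries (median 31.5). Dusp14 had its highest value in CN library 2. The log2 fold changes in CN against N were 0.47 (SE 0.23) for Dusp1, 0.62 (SE 0.20) for Dusp6, 0.46 (SE 0.22) for Dusp5 and 0.55 (SE 0.16) for Dusp14, with adjusted p values of 0.420, 0.226, 0.407 and 0.191. Without CN library 2 they were 0.58 for Dusp1, 0.72 for Dusp6, 0.49 for Dusp5 and 0.47 for Dusp14. In N against control, Dusp1 was at -0.38 (SE 0.20, adjusted p = 0.581) and Dusp6 at -0.43 (SE 0.18, adjusted p = 0.432). Dusp14 was at 0.40 in CN against control (SE 0.16, adjusted p = 0.590), and at 0.31 without CN library 2.

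Btg2 stood at 11.3, 8.06, 15.3, 17.5 and 13.4 CPM in CN libraries 1 to 5, at 7.39 to 15.2 CPM in the 8 N libraries (median 9.25) and at 6.98 to 21.7 CPM in the 8 control libraries (median 14.2). Btg2, an antiproliferative cofactor of mRNA deadenylation, had a log2 fold change of -0.50 (SE 0.23, adjusted p = 0.492) in N against control and 0.37 (SE 0.25, adjusted p = 0.571) in CN against N, where it was 0.51 without CN library 2. Among the other signalling genes, Sik1, a salt-inducible kinase that restrains the coactivators of CREB, covered 12.6 to 29.1 CPM in CN, 12.7 to 23.1 CPM in N and 13.5 to 30.8 CPM in control libraries. The pseudokinase Trib1 covered 7.35 to 12.1 CPM in CN, 6.37 to 9.87 CPM in N and 6.60 to 11.96 CPM in control libraries. Gadd45b and Gadd45g, stress sensors linked to DNA demethylation, had their highest values in CN library 2, at 26.1 and 38.7 CPM, against at most 16.9 and 22.2 CPM in control mice. The Ier genes are named for their immediate-early response to growth factors and stress. Ier2 and Ier3 also peaked in CN library 2, at 6.15 and 5.52 CPM, and Ier5 peaked there at 109.9 CPM. With all libraries, none of these 7 genes had an unadjusted p under 0.05 in any comparison. Without CN library 2, Ier3 was at -0.47 in CN against N (edgeR, unadjusted p = 0.0014, adjusted p = 0.0874). There, Sik1 was at 0.53 and Trib1 at 0.30 (unadjusted p = 0.0214 and 0.0255, adjusted p = 0.226 and 0.243). In N against control of that fit, Ier3 was at 0.25 and Trib1 at -0.22 (unadjusted p = 0.0282 and 0.0441, adjusted p = 0.244 and 0.291).

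Arc stood at 194, 126, 204, 263 and 233 CPM in CN libraries 1 to 5, at 45.2 to 172 CPM in the 8 N libraries (median 102) and at 77.2 to 336 CPM in the 8 control libraries (median 178). Arc, a cytoskeletal protein that takes AMPA receptors out of the synapse, was under 130 CPM in 1 of 5 CN, 5 of 8 N and 3 of 8 control mice. Its log2 fold change was -0.86 (SE 0.30, adjusted p = 0.356) in N against control, 0.05 (SE 0.34, adjusted p = 0.970) in CN against control and 0.90 (SE 0.34, adjusted p = 0.302) in CN against N. Without CN library 2 it was 0.18 in CN against control and 1.04 in CN against N. Nptx2 was at 31.1, 47.9, 36.9, 37.2 and 39.2 CPM in CN libraries 1 to 5, at 27.9 to 41.9 CPM in the 8 N libraries (median 34.1) and at 28.4 to 50.4 CPM in the 8 control libraries (median 33.04). Nptx2, a secreted pentraxin that gathers AMPA receptors and is induced more slowly, had log2 fold changes of -0.03 (SE 0.11) in N against control and 0.17 (SE 0.12) in CN against N (0.086 without CN library 2), and the groups overlapped throughout. Per kilobase of exon (GENCODE M21), the genes with the highest levels in control mice were Arc at 64.6, Egr1 at 60.7 and Junb at 47.7 CPM per kb, with SDs of 31.4, 18.04 and 16.9 (n = 8) that exceed the differences between them. Fos was at 8.54 ± 4.74 and Npas4 at 8.18 ± 2.87 CPM per kb, and Maff was lowest at 0.430 ± 0.146 CPM per kb (SD, n = 8).

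**Figure D2:**
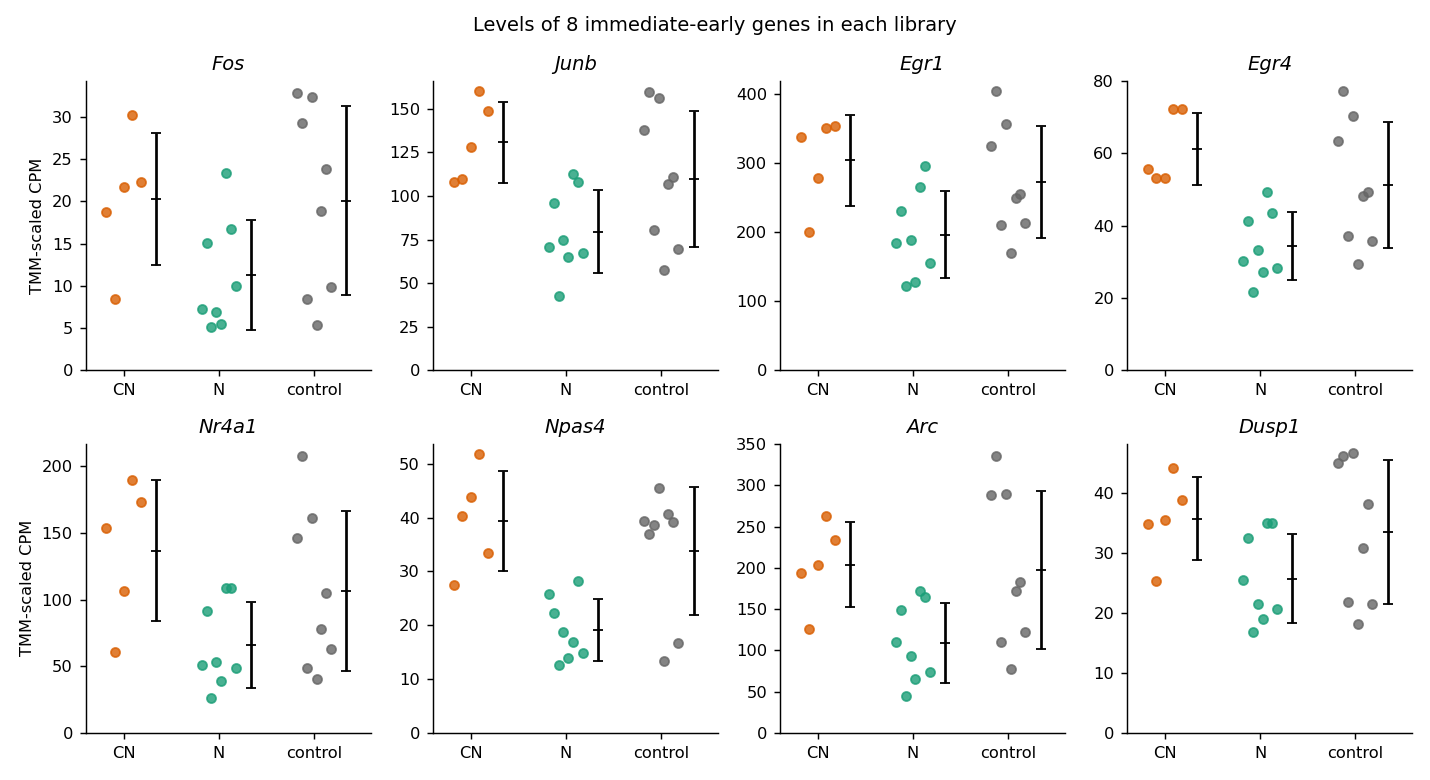
TMM-scaled CPM (y axis, from 0) of 8 genes in each library, with the mean and SD of the group beside the points, for 5 CN, 8 N and 8 control mice. The 5 CN values of Egr4, from 53.1 CPM upwards, lie above all 8 N values, and for the other genes the groups overlap.

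Sums of markers of other cells are given here by group, with no test between groups, and their part in these results was not tested. The 8 mural cell markers summed to 168 to 216 CPM in CN, 167 to 203 CPM in N and 203 to 230.3 CPM in control mice, so that the 8 N mice, at 202.88 CPM or less, lay just below the lowest control mouse at 203.31 CPM. The 10 microglial markers summed to 434 to 473 CPM in 4 CN mice and 663 CPM in CN library 2, 405 to 473 CPM in N and 443 to 507 CPM in control mice. The 8 choroid plexus markers reached 509.8 CPM in CN, 3700.1 CPM in N and 1030.4 CPM in control mice. None of the markers tested was at 0 in all libraries, and 2 of 5 muscle markers were tested.

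These genes varied together from mouse to mouse within the groups. To keep group differences out, each value was taken as its deviation from the group mean of log2 CPM. Over the 21 libraries, 19 of the other 31 genes were positively correlated with Fos at an adjusted p under 0.05 (permutation test, 100000 resamples, Benjamini-Hochberg over 31), and 1 was negatively correlated. The median Pearson's r of the 31 was 0.55, against -0.0053 for the 19381 other genes tested. Among the 31, 13 had an r of at least 0.7, against 23 of the 19381 others (0.119%), and 7 had an r of at least 0.9, against 1 of the others. These 7 were Dusp1 (0.961), Btg2 (0.950), Egr2 (0.944), Nr4a1 (0.936), Arc (0.931), Junb (0.912) and Egr4 (0.904), each with the smallest p that 100000 permutations can give (1e-05, adjusted 3.4e-05). Their Spearman's rho was 0.91 to 0.95. Without the 2 libraries farthest from the median of Fos, CN library 2 and control library 5, their r was 0.90 to 0.95.

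The same held inside single groups. Among the 8 N mice 15 of the 31 genes had an r of at least 0.7 with Fos, against 2.02% of the 19381 other genes. There, 9 of the 31 passed an exact permutation test (40320 orders, adjusted p under 0.05), all with an unadjusted p of at most 0.005977, which 0.165% of the other genes reached with an r above 0. Among the 8 control mice 17 of the 31 had an r of at least 0.7, against 2.59% of the others. Of these 31, 14 passed the test, at an unadjusted p of at most 0.01917, which 1.04% of the other genes reached with an r above 0. Dusp1 had an r of 0.918 within N mice and 0.987 within control mice, and Egr2 had 0.968 within N mice and 0.959 within control mice. The libraries low in Fos were N libraries 1, 3, 4, 5 and 8, control libraries 3, 5 and 8 and CN library 2. In control library 5, 28 of the 32 genes were below the control median, in control library 3 it was 30, and in N library 8 it was 29. At the other end, 3 of 32 were below it in control library 1, 5 in control library 4 and 6 in CN library 5. The 5 windows printed above beside that of Fos belong to genes of this set, apart from Npas4. Of Fos and the genes with an r of at least 0.7, 11 had a window, and Arc, Egr1 and Sik1 had none. TGACG was present in any window for 9 of these 11 genes, the exceptions being Dusp6 and Fosl2. It was present for 6 of the 13 other genes with a window.

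Not all genes of the class followed Fos. Npas4 had an r of 0.61 (adjusted p = 0.0063), which was 0.52 without the 2 farthest libraries and 0.47 (adjusted p = 0.060) without control library 5. It was out of step in control library 3, with 38.6 CPM of Npas4 beside 8.39 CPM of Fos, in CN library 2, with 40.3 beside 8.48 CPM, and in N library 6, with 16.8 beside 23.4 CPM. Egr3 (0.63), Nr4a3 (0.55), Dusp14 (0.50), Klf10 (0.50) and Trib1 (0.50) passed at an adjusted p under 0.05 with a lower r. The 11 genes that did not pass were Klf4, Csrnp1, Jun, Ier2, Nptx2, Ier5, Gadd45g, Gadd45b, Nr4a2, Ier3 and Jund, with r from 0.40 to -0.28. By role, the median r with Fos was 0.90 for the 4 Egr genes, 0.80 for the 4 phosphatases and 0.13 for the 3 Ier genes. Maff, a small Maf protein without a transactivation domain, ran the other way, with an r of -0.60 (rho = -0.61, adjusted p = 0.0075) and -0.52 without the 2 farthest libraries. Within N and within control mice the r of Maff was -0.67 and -0.52, neither past the adjusted threshold.

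**Figure D3:**
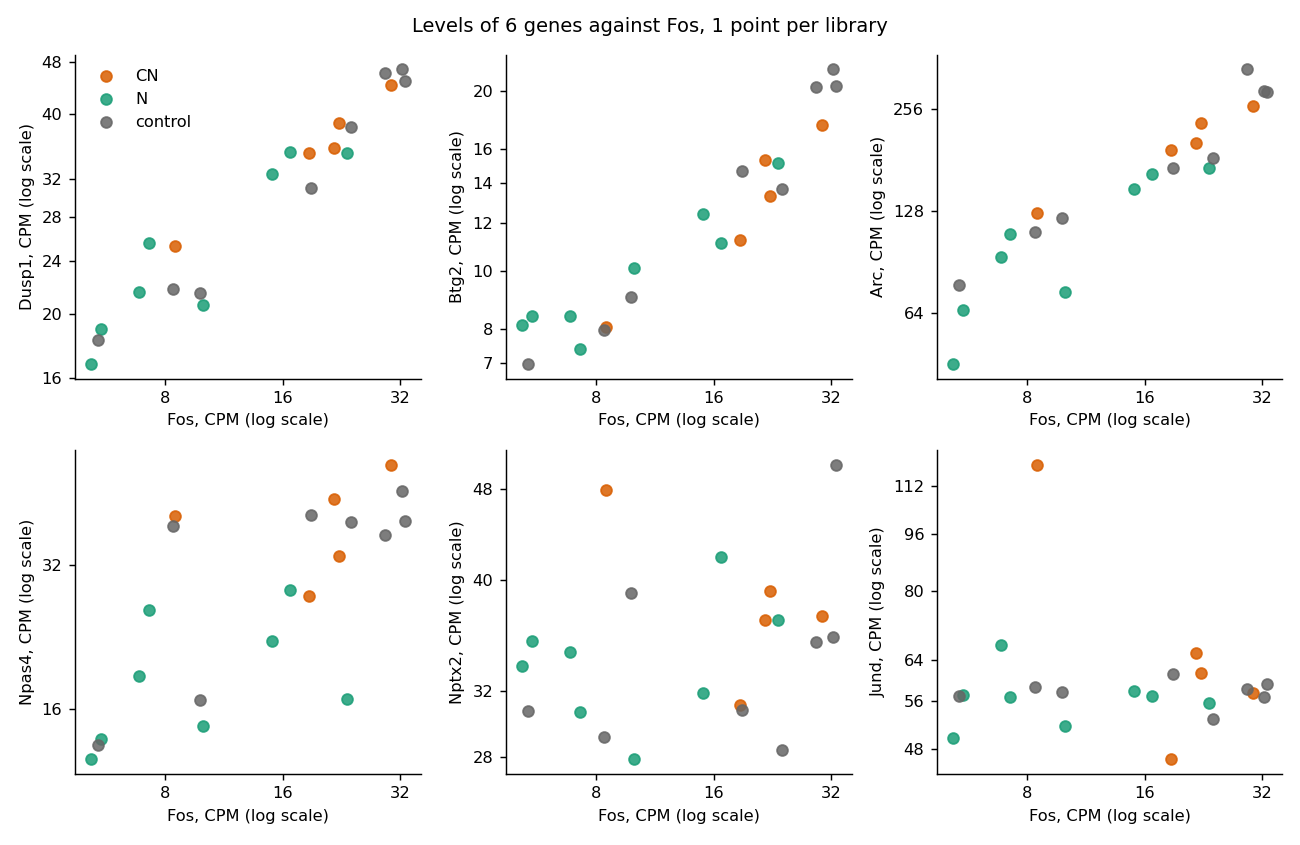
CPM of 6 genes (y axes) against CPM of Fos (x axes), both on log scales, with 1 point per library for 5 CN, 8 N and 8 control mice. Dusp1, Btg2 and Arc climb with Fos in all 3 groups, Npas4 does so with libraries out of step, and Nptx2 and Jund do not, with CN library 2 at 120.05 CPM of Jund.

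**Figure D4:**
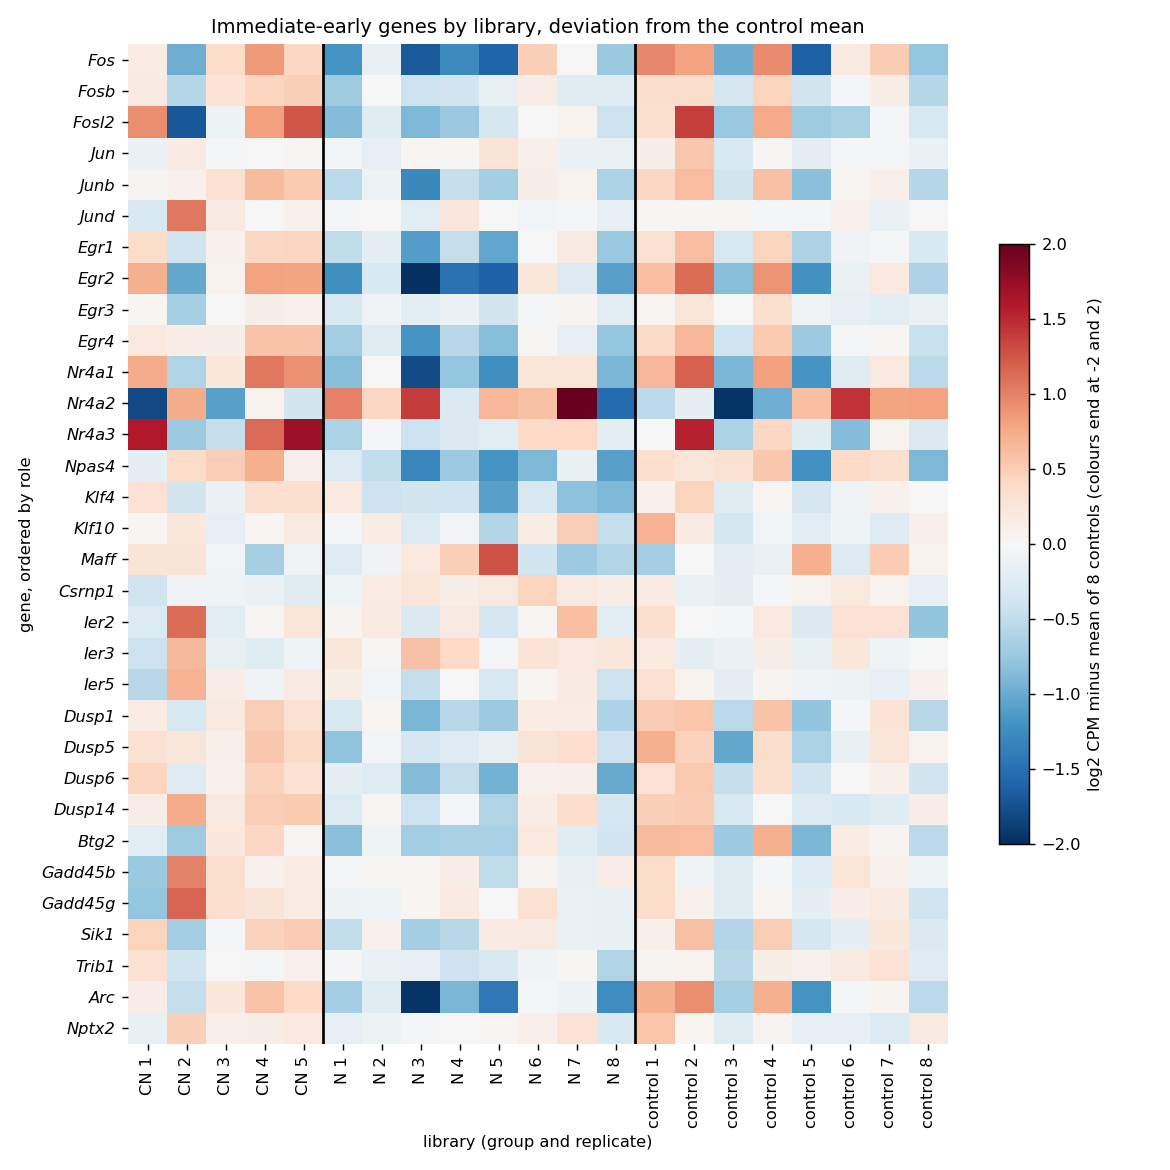
Deviation of log2 CPM from the control mean (colour) of the 32 genes in each of the 21 libraries, with lines between CN, N and control mice. Columns of 1 colour over many genes, such as N library 3 and control library 5 in blue and control library 4 in red, show libraries in which these genes were low or high together.

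Fos followed none of the cell type marker lists past the threshold. Over 10 marker lists the correlation of their sums with Fos ranged from -0.46 (microglia) to 0.23 (striatal), and the lowest adjusted p was 0.285 for r and 0.100 for rho, over 20 relations computed for Fos and Nr4a2. Nr4a2 was different. Its deviations followed the sum of 10 cortical markers with an r of 0.87 and a rho of 0.89 (permutation p = 1e-05 for each, the smallest that 100000 permutations can give, adjusted p = 0.0002), and r was 0.87 without the 2 farthest libraries. Only Fos and Nr4a2 were correlated with the marker lists, and the adjustment does not cover the choice of Nr4a2 among the genes. The cortical markers summed to 171 to 392 CPM in CN, 186 to 481 CPM in N and 167 to 336 CPM in control mice, a small part of the striatal sum. N library 7 had both the highest cortical sum, 481 CPM, and the highest Nr4a2, 21.9 CPM, and control library 3 had both the lowest, at 167 and 1.36 CPM. The log2 fold change of Nr4a2 was 0.51 (SE 0.46) in N against control and -1.07 (SE 0.54) in CN against N, with unadjusted p of 0.282 and 0.0628, and -1.46 in CN against N without CN library 2 (unadjusted p = 0.0340, adjusted p = 0.273). The part of cortical tissue in these values was not tested.

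Even among the 8 control mice the spread was wide. The SD of log2 CPM was 1.12 for Nr4a2, 0.9998 for Fos, 0.85 for Nr4a1 and for Egr2, 0.77 for Fosl2 and 0.76 for Arc. Genes of like level (within 0.5 log2 units of the mean) had a median SD of 0.19 for Nr4a2, 0.13 for Fos and 0.074 for Arc. Of the 32 genes, 26 were at or above the 90th percentile of genes of like level and 17 at or above the 99th. Only Ier3 and Jund were below the 50th percentile, with SDs of 0.16 and 0.061.

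**Figure D5:**
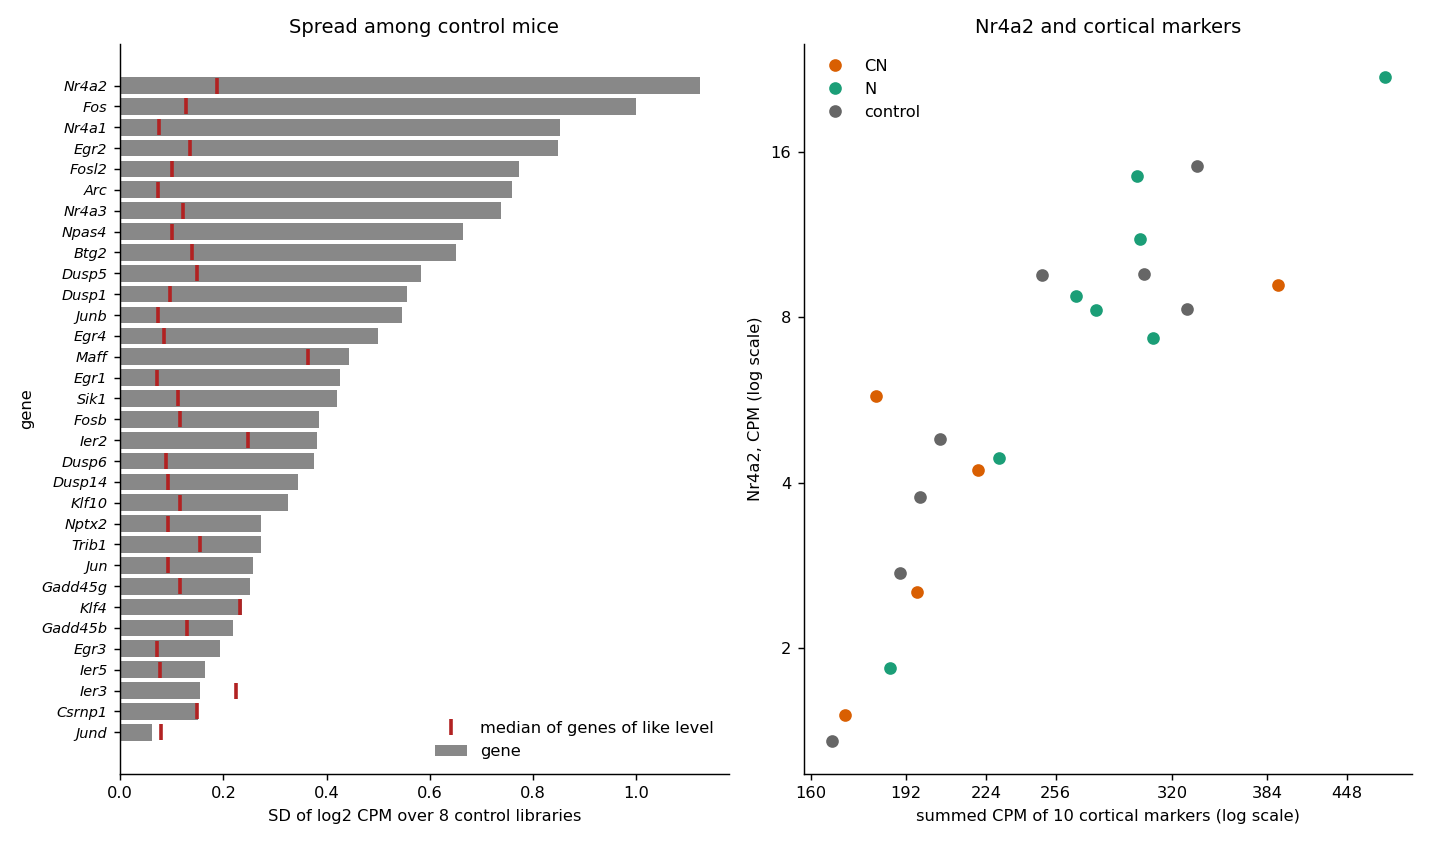
Left, SD of log2 CPM over the 8 control libraries (bars) and the median SD of genes of like level (red marks), where the bars of 30 genes pass their mark and those of Ier3 and Jund do not. Right, CPM of Nr4a2 against the summed CPM of 10 cortical markers, both on log scales, for 5 CN, 8 N and 8 control mice, where libraries high in one are high in the other.

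Outside the 32 genes, the transcript most like Fos among genes of at least 1 CPM was 1700016P03Rik, with an r of 0.913 over 21 libraries. It stood at 4.57 to 14.9 CPM in CN, 2.66 to 6.82 CPM in N and 3.78 to 13.2 CPM in control mice. In GENCODE M21 this gene, on the plus strand of chromosome 11, contains Mir212 and Mir132, whose microRNAs are known to be induced by CREB in neurons. Mir212, named here after its values were seen, ranked 12th with an r of 0.730 and stood at 1.45 to 1.83 CPM in CN, 0.598 to 1.41 CPM in N and 0.630 to 2.42 CPM in control mice. Mir132 stood at 0.444 to 1.195 CPM in CN, 0.168 to 0.800 CPM in N and 0.133 to 0.728 CPM in control mice. Its highest value was in CN library 2, the CN library lowest in Fos, and its r with Fos is not given here. Both microRNAs share the seed AACAGUC (RefSeq, GRCm38.p6, chr11:75173443-75173464 and chr11:75173723-75173744, plus strand), shown in capitals, and the counts are of the gene rows, not of the mature microRNAs.
miR-212-3p: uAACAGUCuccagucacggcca
miR-132-3p: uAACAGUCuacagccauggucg
The 7 next were Shisa2 (0.866), Irf2bpl (0.793), Gpr3 (0.793), Srf (0.790), Gm527 (0.784), Slc25a25 (0.777) and Tiparp (0.771). Srf encodes the factor that binds the CArG box. These values are a description of the same 21 libraries.

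Other genes of the programme were read from 4 lists of other genes. Of 30 late and other activity-induced genes, 0 had an adjusted p under 0.05 in any comparison. At an unadjusted p under 0.05, 3 were higher and 4 lower in N against control mice, 3 higher and 1 lower in CN against control mice, and 5 higher and 3 lower in CN against N mice, with medians of -0.015, 0.038 and 0.044. Of all genes 5.06% were higher and 4.33% lower at that p in N against control, 5.08% higher and 3.28% lower in CN against control, and 5.99% higher and 5.83% lower in CN against N, and these shares apply to the lists that follow too. The smallest p in CN against N belonged to Rgs2, a regulator of G protein signalling, at 168 ± 16.8 CPM in CN and 111 ± 20.1 CPM in N mice (SD, n = 5 and 8, log2 fold change 0.60, SE 0.13, adjusted p = 0.109). Plk2, an activity-induced kinase of synapses, was at 0.26 (SE 0.068, adjusted p = 0.157), Spry2 at 0.31 (SE 0.10, adjusted p = 0.238) and Nrn1 at -1.33 (SE 0.45, adjusted p = 0.247). Nrn1 is also 1 of the 10 cortical markers. In N against control the smallest p values belonged to Scg2 at 0.25, Rgs4 at -0.30, Plk2 at -0.16 and Dusp4 at 0.55, and in CN against control to Nfil3 at 0.37, Rgs2 at 0.35, Atf3 at 0.65 and Nrn1 at -0.94.

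Of 25 upstream regulators (CREB, SRF and their kinases and coactivators), 0 had an adjusted p under 0.05, and the medians were -0.037 in N against control, -0.052 in CN against control and 0.0033 in CN against N. Elk1, Srf and Camk2a were at -0.19, -0.16 and -0.14 in N against control at an unadjusted p under 0.05, Mapk3 at 0.26 in CN against control and Srf at 0.19 in CN against N. Glucocorticoid-responsive genes, which rise with stress hormone, and clock genes, which follow the time of day, were listed as well. Of 12 glucocorticoid-responsive genes 0 passed, and 1, Plin4, had an unadjusted p under 0.05, at -1.82 (SE 0.80) in CN against control. Of 15 clock genes 0 passed, with Bmal1 at -0.18 and Tef at -0.13 in N against control and Tef at 0.15 in CN against N at an unadjusted p under 0.05. The median r with Fos over the libraries was 0.22 for the late genes, 0.32 for the regulators, -0.21 for the glucocorticoid-responsive genes and 0.24 for the clock genes. Per1, which is on both the late list and the clock list, had 0.734.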

How the data were processed

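Read counts per Ensembl gene were deposited by the authors as a single mouse table with 1 column per animal. For these mouse libraries the submitters' processing notes name STAR, featureCounts, edgeR and a human build, GRCh38. The build of the counts is therefore unsettled, and printed coordinates are those of the reference sequences. Symbols were matched for 54409 of 54532 rows, and the 123 others stayed in the table. The rat libraries of the series are not analysed here.

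The deposited counts of 21 libraries in 3 groups were fitted together by quasi-likelihood in edgeR 4.0.16 (R 4.3.3), with TMM scaling, filterByExpr and robust dispersion, tested on simulated data first. Benjamini-Hochberg adjustment ran over 19413 genes. DESeq2 1.42.0 and limma-voom (limma 3.58.1) were alternatives. Correlations used log2 CPM with a prior count of 2 and SciPy 1.17.1.

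All 32 genes are accounted for. For 10 genes of a fixed list and those with an unadjusted p under 0.05 over all libraries, the 5 CN values are printed singly. The 8 N and 8 control values are printed as lowest, median and highest. The members and lists were chosen with earlier results of these data known. Libraries were numbered in the order of the records, and the labels do not say whether mice shared a litter or batch. No library was taken as a duplicate, since the chi-square per degree of freedom between libraries of a group was at least 5.91.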

Additional observations from a re-analysis of the deposited data

Results flagged for a closer look

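In 10 of 96 sets of 1 gene in 1 group, the highest or lowest library lay farther from the others than Dixon's 95% limit allows, and chance alone gives about 1 in 20 such sets. CN library 2 accounts for 4 of them. It was highest of the 5 CN mice for Jund at 120.05 CPM (next 65.5), for Ier2 at 6.15 CPM (next 3.30) and for Ier3 at 5.52 CPM (next 3.27), and lowest for Egr3 at 118.65 CPM (next 187 CPM). This library was also the one with the lowest Taf1 and with a dependence on exonic length, whose part in these values was not tested.

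Among N mice, Jund reached 67.2 CPM in library 4 (next 57.9), Maff reached 2.68 CPM in library 5 (next 1.51) and Ier2 reached 4.29 CPM in library 7 (next 3.16). Among control mice, library 2 was highest for Jun at 49.2 CPM (next 36.7) and for Nr4a3 at 41.9 CPM (next 19.2), and library 1 was highest for Klf10 at 28.6 CPM (next 19.8).

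In the mouse whose label names no miRNA, Ier3 stood at 5.67 CPM, above the highest control value of 4.04 CPM.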

How the results depend on the processing

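Of the 32 genes, DESeq2 called 1 in N against control and 3 in CN against N, and every other alternative run called 0. The number of all genes called by edgeR was 0 in each comparison. In N against control it was 74 with DESeq2, 209 with only those 2 groups in the fit, 300 without CN libraries 1 and 2, and 0 to 197 with 1 library left out (11 without CN library 1, 197 without CN library 2 and 32 without N library 1). In CN against N it was 172 with DESeq2, 8 without a count filter, 4 without CN libraries 1 and 2, and 0 to 70 with 1 library left out (23 without N library 1 and 70 without CN library 2). In CN against control it was 0 to 1 with 1 library left out. The cause was not tested.

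The median log2 fold change of the 32 genes kept its sign throughout. With 1 library left out it was -0.31 to -0.15 in N against control, 0.094 to 0.23 in CN against control and 0.35 to 0.50 in CN against N. Without CN libraries 1 and 2 it was -0.23, 0.24 and 0.51. Libraries were also split by Ambn, an enamel matrix gene (at or above 0.5 CPM in 4 of 5 CN, 3 of 8 N and 5 of 8 control mice). With 0.5 CPM or more the medians were -0.16, 0.16 and 0.38, and below it, with 1 CN mouse, -0.27, 0.060 and 0.34. Members at an unadjusted p under 0.05 numbered 11, 1 and 17 over all libraries (9.39%, 8.36% and 11.8% of all genes). With 0.5 CPM or more of Ambn they numbered 0, 0 and 1 (1.58%, 3.71% and 3.27%), with fewer libraries in the fit. Below 0.5 CPM, where 1 CN mouse remains, such counts are not given. This split and the removal of CN libraries 1 and 2 were chosen after seeing the data.

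Signs turned for genes near 0 and, in some settings, for genes farther from it. In N against control Nptx2 was at -0.084 to 0.060 with 1 library left out, 0.00093 with the Ambn class as covariate and 0.094 below 0.5 CPM of Ambn. In CN against control Fos was at -0.18 to 0.22 with 1 library left out and -0.0032 with the covariate, Arc at -0.075 to 0.20, -0.0061 with the covariate and -0.017 at or above 0.5 CPM, and Btg2 at -0.25 to 0.012, 0.11 without CN libraries 1 and 2 and 0.13 below 0.5 CPM. Nr4a3 in CN against N, farther from 0, turned to -0.35 below 0.5 CPM of Ambn, where 1 CN mouse remains. Other values farther from 0 turned as well. Over all 32 settings, in CN against control, Nr4a3 ran from -0.57 to 1.14 and Fosl2 from -0.22 to 0.64. In that comparison Ier2 ran from -0.31 to 0.38 and Egr2 from -0.13 to 0.42. Trib1 ran from -0.48 to 0.031 in N against control, and Maff from -0.43 to 0.33 in CN against N. No paired analysis was possible because replicate numbers were given in the order of the records.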

Other observations

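The mouse whose injection label names no miRNA had levels inside the control range for 29 of the 32 genes, below every control mouse for 2 and above every control mouse for 1. It stood at 20.6 CPM for Fos, 42.4 CPM for Npas4, 43.2 CPM for Egr4, 173 CPM for Arc and 225 CPM for Egr1. It was 1 library and entered no comparison.

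The direction of CN library 2 differed between genes of the list with their length. Against the other 4 CN mice it was lower by log2 differences of -2.42 for Fosl2, -1.72 for Nr4a3, -1.61 for Egr2 and -1.42 for Fos, with exonic lengths of 9680, 5987, 3398 and 2352 bases. It was higher by 1.18 for Ier2, 1.17 for Gadd45g, 1.07 for Jund and 1.04 for Gadd45b, with exonic lengths of 1522, 1173, 1668 and 1589 bases, and by 1.53 for Nr4a2, with 4059 bases.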
